A study of Mus musculus with 17 samples.

Results

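The comparison is between hematopoietic stem and progenitor cells taken 72 h and 24 h after mice had received lipopolysaccharide (LPS) and a blocking antibody against the receptor of interleukin-10 (anti-IL-10R). Its members are 6 of the 17 libraries of the series, 3 at 72 h and 3 at 24 h, chosen by the treatment and time in their titles and not by any measured value. The comparison itself was chosen with earlier results of these data known. All 6 came from bone marrow of wild-type C57BL/6J mice injected into the peritoneum with LPS and antibody at the same stated amounts. The design text gives 5 micrograms of LPS and 100 micrograms of antibody, the sample protocol gives the same figures in milligrams, and neither was assumed. The groups used beside them were 3 libraries at 24 h and 3 at 72 h after LPS alone, and 5 libraries after phosphate-buffered saline (PBS), titled day 0. A mouse gives marrow at 1 time only. Sex, age, pooling of animals, batch and the surface markers of the sorting gate are not in the labels, and no group received the antibody without LPS. The labels do not say that libraries of a group came from separate animals, so p-values measure the spread between libraries, which may be technical.

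Hematopoietic stem and progenitor cells are the immature bone marrow cells from which all blood lineages form. LPS, a component of the outer membrane of Gram-negative bacteria, is sensed by Toll-like receptor 4 and drives these cells from rest into growth and toward myeloid output. Interleukin-10 acts through a receptor of the chains IL-10RA and IL-10RB, which signals through JAK1, TYK2 and STAT3 and restrains inflammatory gene expression. The comparison asks how far the transcriptome of cells exposed to LPS moved between 1 day and 3 days in mice also given the antibody. Whether the receptor stayed blocked over that time is not in the labels.

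Over all 17 libraries the total count ran from 10516722 to 16006001, and 14920 genes passed the filter on low counts. The library of LPS alone numbered 1 at 24 h stood apart in composition, with a scaling factor of 0.799 and 16431 genes detected. Among the antibody libraries, number 1 stood apart at both times in interferon-γ target genes, and number 3 at both times in low erythroid genes, as described below. The recorded name of antibody library 1 at 24 h is written in another style than those of the other 5, and whether this marks a batch is not stated. Values per library are CPM, read counts scaled to library size and composition, listed for libraries 1, 2 and 3 of a group in that order. Positive log2 changes mean higher at 72 h.

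No gene passed the test between 72 h and 24 h with antibody. The edgeR quasi-likelihood test called 0 of 14920 genes (0%) at an adjusted p below 0.05, and the lowest adjusted p was 0.918. At an unadjusted p below 0.05 it found 635 genes (4.26%), 377 higher at 72 h (2.53%) and 258 lower (1.73%). DESeq2 called 2 genes, Enc1 and BC018473, both higher at 72 h, with 686 at an unadjusted p below 0.05, and limma voom called 0, with 1084 genes at an unadjusted p below 0.05. The absence of calls is not a measured absence of change, since the 95% interval of the log2 change lay within 2-fold in either direction for 10429 genes (69.9%) and was wider for the rest. The median log2 change over all genes was 0.00 and the median standard error 0.23. The values of the 3 libraries at 72 h lay entirely above those at 24 h for 727 genes (4.87%) and entirely below for 654 (4.38%), 1381 in all (9.26%).

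By the number of genes over 2-fold apart, libraries of the same time point differed from each other more than the same-numbered libraries 1 and 3 differed across time. Libraries 1 and 3 differed by over 2-fold in 2431 genes at 24 h and in 2783 genes at 72 h. By contrast, library 3 at 24 h and library 3 at 72 h differed by that much in 550 genes, the fewest of the 15 pairs of these 6 libraries, and the libraries numbered 1 in 1129. The libraries numbered 2 differed in 1580 genes, more than library 2 at 24 h and library 3 at 72 h did (1375). By the median absolute log2 difference the order was another, since libraries 2 and 3 at 72 h (0.249) were closer than the libraries numbered 1 (0.282). Of the sum of squares among the 6 libraries over all genes, 70.7% went with the replicate number, 10.4% with time and 18.9% with neither. The labels do not say what a shared number means. Deviations from the group means were correlated across genes at 0.72 between the libraries numbered 1, at -0.02 between those numbered 2 and at 0.70 between those numbered 3, so the numbers went together for 2 of the 3 pairs.

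A fit of the 6 libraries with the replicate number as a block left 2 residual degrees of freedom. In edgeR it called 1 of 14920 genes (0.00670%) and found 1407 genes (9.43%) at an unadjusted p below 0.05, 609 higher (4.08%) and 798 lower (5.35%). The called gene was BC018473, a non-coding transcript. Its counts were 0 in each library at 24 h and 1679, 199 and 0 at 72 h, so that library 3 was at 0 at both times. In the other groups it reached 122 CPM in library 3 of LPS alone at 24 h and 33.5 CPM in library 5 of PBS, and at most 0.185 CPM elsewhere. DESeq2 with the same block called 39 genes (0.261%), 7 higher (0.0469%) and 32 lower (0.214%). The lower ones included 8 erythroid genes, described below.

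The genes with the smallest unadjusted p in each direction are given as values, since none was called. Enc1, which encodes a kelch-repeat protein that binds actin (chr13:97241105-97253034 in GRCm38), was at 8.61, 7.57 and 11.5 CPM at 24 h and at 119, 61.1 and 13.6 CPM at 72 h. The groups did not overlap, but library 3 at 72 h lay close to the 24 h values. The change on the log2 scale was 2.81 ± 0.67 (SE, n = 3 a group), at an adjusted p of 0.918 in edgeR and 0.0206 in DESeq2. After LPS alone Enc1 ran from 8.16 to 42.9 CPM at 24 h and from 10.5 to 30.8 CPM at 72 h, and in PBS from 11.2 to 13.5 CPM. Peli2, a Pellino ubiquitin ligase that acts downstream of Toll-like receptors, was at 7.49, 7.73 and 12.1 CPM at 24 h and at 14.9, 17.8 and 13.4 CPM at 72 h, a log2 change of 0.75 ± 0.19 (SE). All 3 libraries at 72 h were higher than those at 24 h and below or within the PBS range of 17.2 to 23.2 CPM.

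The other 3 genes on the higher side were near the detection limit at 24 h. Lpar1, a receptor for lysophosphatidic acid, was at 0.07, 0 and 0.325 CPM at 24 h and at 1.01, 2.06 and 0.495 CPM at 72 h, with a fitted log2 change of 3.10 ± 0.81 (SE). Dennd2a was at 0.42, 0.156 and 0.325 CPM and then at 1.51, 4.58 and 0.849 CPM, a log2 change of 2.88 ± 0.76 (SE). Gm10561 had counts of 0 at 24 h and of 2, 4 and 4 at 72 h. It is annotated antisense to Rftn2, and reads of the 2 strands cannot be told apart where counting ignored strand.

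On the lower side the 5 log2 changes lay between -0.52 and -1.05. Trmt12, an enzyme that modifies transfer RNA, was at 12.1, 10.9 and 10.2 CPM at 24 h and at 6.9, 6.91 and 7.07 CPM at 72 h, a change of -0.67 ± 0.17 (SE) on the log2 scale. Fbxl6, an F-box protein, was at 63.6, 60.9 and 49.2 CPM and then at 39.8, 42.8 and 39 CPM, a log2 change of -0.52 ± 0.14 (SE). Steap3, the endosomal reductase that frees iron taken up with transferrin, was at 57.7, 66.8 and 39.3 CPM and then at 33.4, 25.4 and 39.2 CPM, so that library 3 was at nearly the same level at both times. Its log2 change was -0.74 ± 0.20 (SE). The log2 change was -1.05 ± 0.24 (SE) for Gm27021 and -1.0 ± 0.28 (SE) for 0610038B21Rik. Gm27021 shares exons with Emc8, and 0610038B21Rik is antisense to Arhgap10, so the source of their reads is uncertain.

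**Figure D1:**
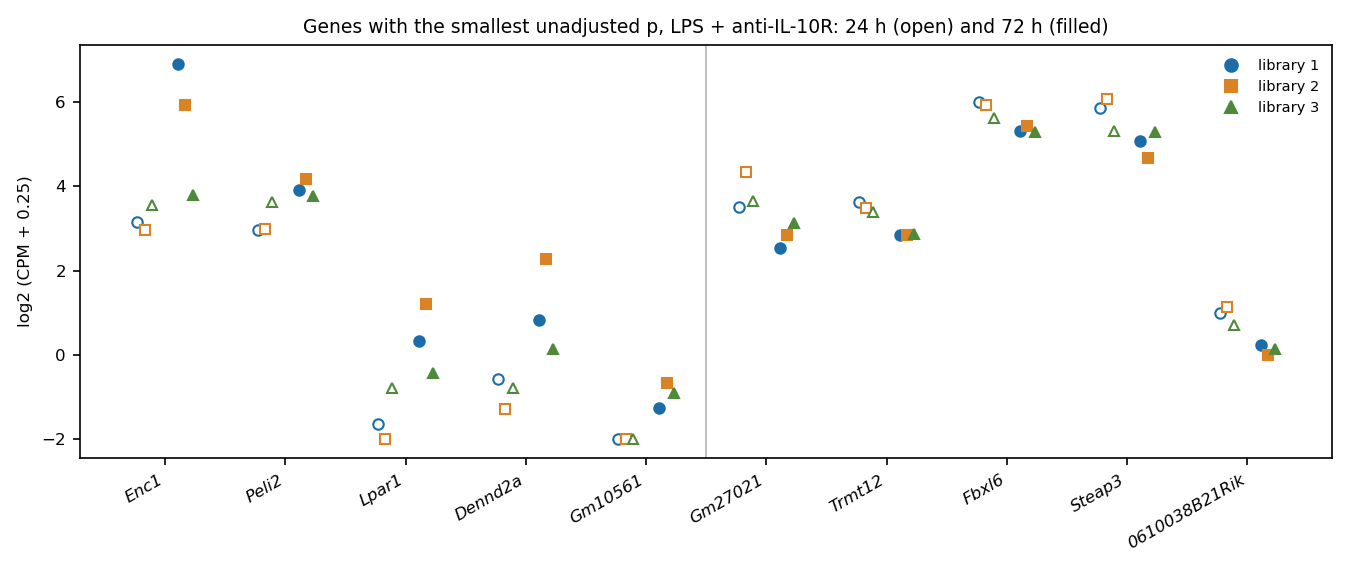
Expression of the 5 genes with the smallest unadjusted p on the higher side (left of the line) and on the lower side (right), as log2 (CPM + 0.25), in the 3 libraries at 24 h (open symbols) and the 3 at 72 h (filled symbols) with LPS and anti-IL-10R. The open and filled symbols of each gene do not overlap, and Enc1 ran from 7.57 to 11.5 CPM at 24 h and from 13.6 to 119 CPM at 72 h.

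The time effect with antibody was next compared with the time effect after LPS alone, by testing the difference between them. The difference was called for 947 genes (6.35%), positive for 601 (4.03%) and negative for 346 (2.32%), where a positive difference means that the 72 h level relative to 24 h was higher with antibody. The difference also rests on the 24 h levels after LPS alone, which are not printed for every gene below. Among the 601 genes the median log2 change from 24 h to 72 h was -0.01 with antibody and -0.99 after LPS alone. Among the 346 it was -0.06 with antibody and 1.44 after LPS alone. The change with antibody was the smaller in size for 599 of the 601 and 340 of the 346. These genes were selected by that same difference, so a gap between the 2 changes was given in advance. The count was not made over all tested genes. With upper-quartile scaling 875 genes were called, of which 49.7% were positive against 63.5% with the main scaling, and the median of all genes moved from 0.01 to -0.09. With the replicate block 44 genes were called (0.295%), 31 positive (0.208%) and 13 negative (0.0871%). Leaving out 1 library at a time gave 258 (without library 1 of LPS alone at 72 h) to 1579 (without antibody library 2 at 24 h).

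**Figure D2:**
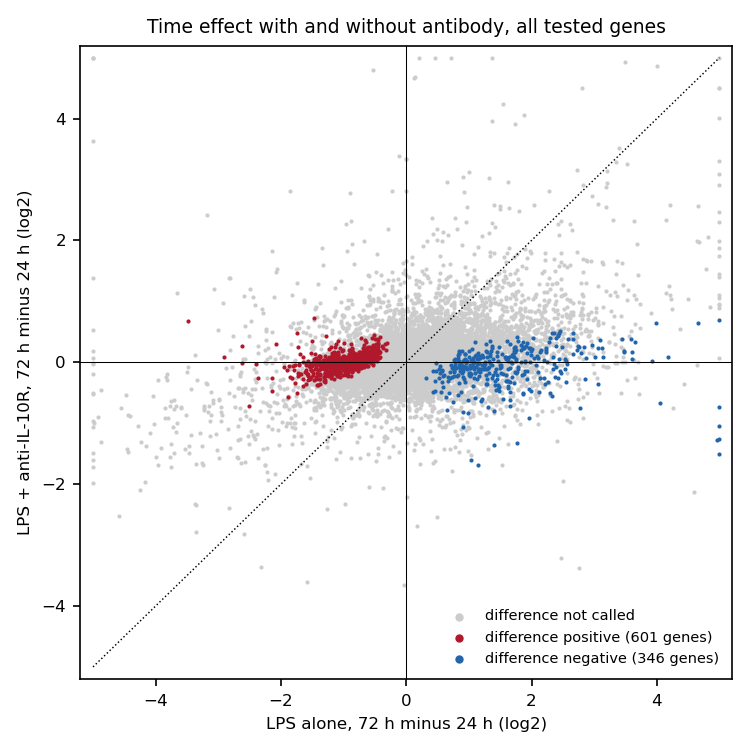
Log2 change from 24 h to 72 h after LPS alone (horizontal axis) and with LPS and anti-IL-10R (vertical axis) for the 14920 tested genes, with values beyond 5 in size drawn at the edge and the dotted line marking equal changes. The 601 genes with a positive difference (red) and the 346 with a negative one (blue) spread along the horizontal axis and lie near 0 on the vertical axis, with medians of -0.01 and -0.06.

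The 5 genes with the greatest positive difference, among called genes of at least median expression, were Asns, Snhg3, Odc1, Hspd1 and Ak4. Asns, asparagine synthetase and a target of the amino acid stress factor ATF4, was at 144, 82.2 and 45.1 CPM at 24 h and at 102, 54.1 and 71.9 CPM at 72 h with antibody. The groups overlapped, and the log2 change was -0.25 ± 0.40 (SE). After LPS alone Asns was at 113, 63.6 and 91.7 CPM at 24 h and at 14.4, 27.1 and 10.3 CPM at 72 h, and the time effects differed by 2.12 ± 0.58 on the log2 scale (SE; edgeR adjusted p = 0.0421).

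Odc1, the rate-limiting enzyme of polyamine synthesis, was at 430, 645 and 391 CPM at 24 h and at 412, 359 and 451 CPM at 72 h with antibody, a log2 change of -0.26 ± 0.26 (SE). After LPS alone it was at 904, 495 and 602 CPM and then at 149, 167 and 136 CPM, and the difference was 1.88 ± 0.37 (SE; edgeR adjusted p = 0.0126). The 72 h libraries with antibody all lay above those of LPS alone, which in part follows from naming the gene by this difference. Hspd1, the mitochondrial chaperonin HSP60, was at 738, 1341 and 1075 CPM and then at 839, 837 and 1305 CPM with antibody, against 1827, 1145 and 1164 CPM and then 338, 382 and 350 CPM after LPS alone. Its log2 change with antibody was -0.08 ± 0.26 (SE) and the difference 1.87 ± 0.37 (SE; edgeR adjusted p = 0.0127). The 2 time points overlapped with antibody. Hspd1 shares exon sequence with the neighbouring Hspe1 on the other strand.

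Snhg3, a host transcript of small nucleolar RNAs, was at 42.5, 43.1 and 30.2 CPM at 24 h and at 50.2, 57.6 and 30.4 CPM at 72 h with antibody, a log2 change of 0.25 ± 0.27 (SE). With LPS alone the levels were 60.4, 40.9 and 34.4 CPM and then 11.2, 19.3 and 10.5 CPM, and the difference was 1.98 ± 0.39 (SE; edgeR adjusted p = 0.013). Its exons overlap those of Rcc1, so part of its reads may belong to that gene. Ak4, a mitochondrial adenylate kinase, was at 25.7, 51.5 and 29.6 CPM and then at 36.9, 65.3 and 33.6 CPM with antibody, highest in library 2 at both times. After LPS alone it was at 47.1, 33.6 and 47.4 CPM and then at 14.3, 14.9 and 15.8 CPM, and the difference was 1.85 ± 0.40 (SE; edgeR adjusted p = 0.0157). Of the 20 genes whose difference is described here and below, Snhg3, Ncl, Nolc1, Slc7a5, Pld4, Gsn and H2-Oa had an edgeR adjusted p of 0.0482 with the replicate block, and the others lay between 0.0577 and 0.0906.

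The promoters of these 5 genes are shown where they hold either of 2 motifs, since factors of growth and of amino acid stress are known to bind them: CACGTG, the E-box bound by MYC and related proteins, and TGATGAAAC, a nutrient-sensing element bound by ATF4. Both were searched on both strands of the 300-base windows from RefSeq (GRCm38.p6), 250 bases before to 50 after each annotated start, and the motifs do not overlap each other. Capitals mark the motif, and each sequence is given 5′ to 3′ along the strand of the gene with its coordinates.
Asns, minus strand of chr6:7693194-7693262: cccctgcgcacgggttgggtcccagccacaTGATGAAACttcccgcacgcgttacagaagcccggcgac
Hspd1, minus strand of chr1:55088288-55088353: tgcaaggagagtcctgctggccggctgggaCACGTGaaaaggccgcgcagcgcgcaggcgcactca
Ak4, plus strand of chr4:101419459-101419524: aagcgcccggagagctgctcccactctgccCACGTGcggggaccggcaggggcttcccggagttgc
The windows of Odc1 and Snhg3 held neither motif, and the matches in Hspd1 and Ak4 were in 1 of the several annotated starts of each gene. Among the 10853 tested genes with a window, CACGTG occurred in 11.5% and TGATGAAAC in 0.175% (19 genes). CACGTG occurred in 5 of the 21 ribosome biogenesis factors with a window (23.8%) and in 2 of 20 amino acid stress genes (10%). A match is a description of the letters and not a binding site.

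Ribosome biogenesis factors, which build ribosomes in the nucleolus, were the list with the most called differences. With antibody none of the 26 genes had an unadjusted p below 0.05 between 72 h and 24 h, 9 estimates were higher and 17 lower, the median log2 change was -0.05, and the 95% interval lay within 2-fold for 25 of 26 (69.9% of all genes). The mean log2 CPM of the list was 7.82, 8.24 and 7.74 at 24 h and 7.87, 7.83 and 7.88 at 72 h. After LPS alone it was 8.42, 7.98 and 8.21 at 24 h and 6.91, 7.0 and 6.95 at 72 h, and the 5 PBS libraries lay between 7.02 and 7.53. The 72 h antibody libraries were therefore all above the PBS range and the 72 h LPS libraries all below it. The difference of the time effects was called for 20 of the 26, all positive, against 4.03% of all genes, and for 2 of the 26 with the replicate block, against 0.208%. Leaving out 1 library at a time gave 10 to 22. Leaving out all LPS libraries numbered 2 gave 22, and leaving out all numbered 1, or all numbered 3, gave 0. Without number 1 or number 3, 0 of all tested genes were called. All 26 estimates stayed positive there, with medians of 0.88 and 1.06. The lists were chosen with earlier results of these data known, so their call shares, here and below, are descriptions and not independent support.

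Ncl, nucleolin, was at 2489, 3324 and 2485 CPM at 24 h and at 3229, 2919 and 3005 CPM at 72 h with antibody, a log2 change of 0.14 ± 0.16 (SE). With LPS alone the levels were 4339, 3099 and 3176 CPM and then 1301, 1323 and 1259 CPM. The difference was 1.59 ± 0.23 (SE; edgeR adjusted p = 0.00831). Nolc1, a nucleolar chaperone, was at 361, 530 and 338 CPM and then at 415, 399 and 393 CPM with antibody, and the difference from LPS alone was 1.68 ± 0.28 (SE; edgeR adjusted p = 0.00831).

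Genes of the amino acid stress response overlapped in level between the times with antibody. The 21 tested genes had a median log2 change of -0.04, with 0 at an unadjusted p below 0.05 and 14 intervals within 2-fold, and their mean log2 CPM was 5.63, 5.60 and 5.24 at 24 h and 5.52, 5.31 and 5.65 at 72 h. The difference from LPS alone was called for 11, all positive, against 4.03% of all genes (Asns, Chac1, Psat1, Phgdh, Shmt2, Mthfd2, Mthfd1l, Aldh18a1, Slc7a5, Slc7a1 and Slc3a2), and for 2 with the replicate block. Leaving out 1 library at a time gave 6 (without antibody library 3 at 24 h or LPS alone library 1 at 72 h) to 13. Leaving out all LPS libraries numbered 2 gave 10. Leaving out all numbered 1, or all numbered 3, gave 0, as it did over all tested genes. Slc7a5, the large neutral amino acid transporter, was at 228, 345 and 194 CPM and then at 248, 239 and 259 CPM with antibody, with a difference of 1.74 ± 0.28 (SE; edgeR adjusted p = 0.00831). Among 20 genes of the unfolded protein response the difference was called for 2, Hspa5 and Dnajb11, against 4.03% of all genes, and for 0 with the replicate block. It was also called for 0 without antibody library 1 or 3 at 24 h, antibody library 3 at 72 h, or LPS alone library 1 or 2 at 72 h, and for 1 to 3 without any other. Hspa5, the endoplasmic reticulum chaperone BiP, was at 1034, 1631 and 1540 CPM at 24 h and at 1054, 1245 and 2053 CPM at 72 h with antibody, and its difference was 1.52 ± 0.43 (SE; edgeR adjusted p = 0.0474).

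Glycolysis genes leaned lower at 72 h with antibody without any call. Of 18, 14 estimates were lower with a median log2 change of -0.21, and 12 were lower in all 3 same-numbered pairs against 17.4% of all genes. The median was -0.10, -0.49 and -0.09 in the pairs numbered 1, 2 and 3. At an unadjusted p below 0.05 there were 2 lower genes, against 1.73%. Those 2 were Pfkm, a subunit of phosphofructokinase, at -0.57 ± 0.23 (SE), and Gapdh at -0.46 ± 0.19 (SE) on the log2 scale. Gapdh was at 417, 615 and 561 CPM at 24 h and at 388, 349 and 419 CPM at 72 h, so that the groups overlapped by a small margin. The difference from LPS alone was called for 2 of the 18, Ldha and Pgk1, against 4.03% of all genes, and for 0 with the replicate block. Leaving out 1 library at a time gave 1 to 5, the latter without antibody library 2 at 24 h. Ldha, lactate dehydrogenase A, was at 1580, 1901 and 1511 CPM and then at 1373, 1358 and 1486 CPM with antibody. At 72 h after LPS alone it was at 551, 636 and 494 CPM, and the time effects differed by 1.62 ± 0.33 (SE; edgeR adjusted p = 0.0136).

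**Figure D3:**
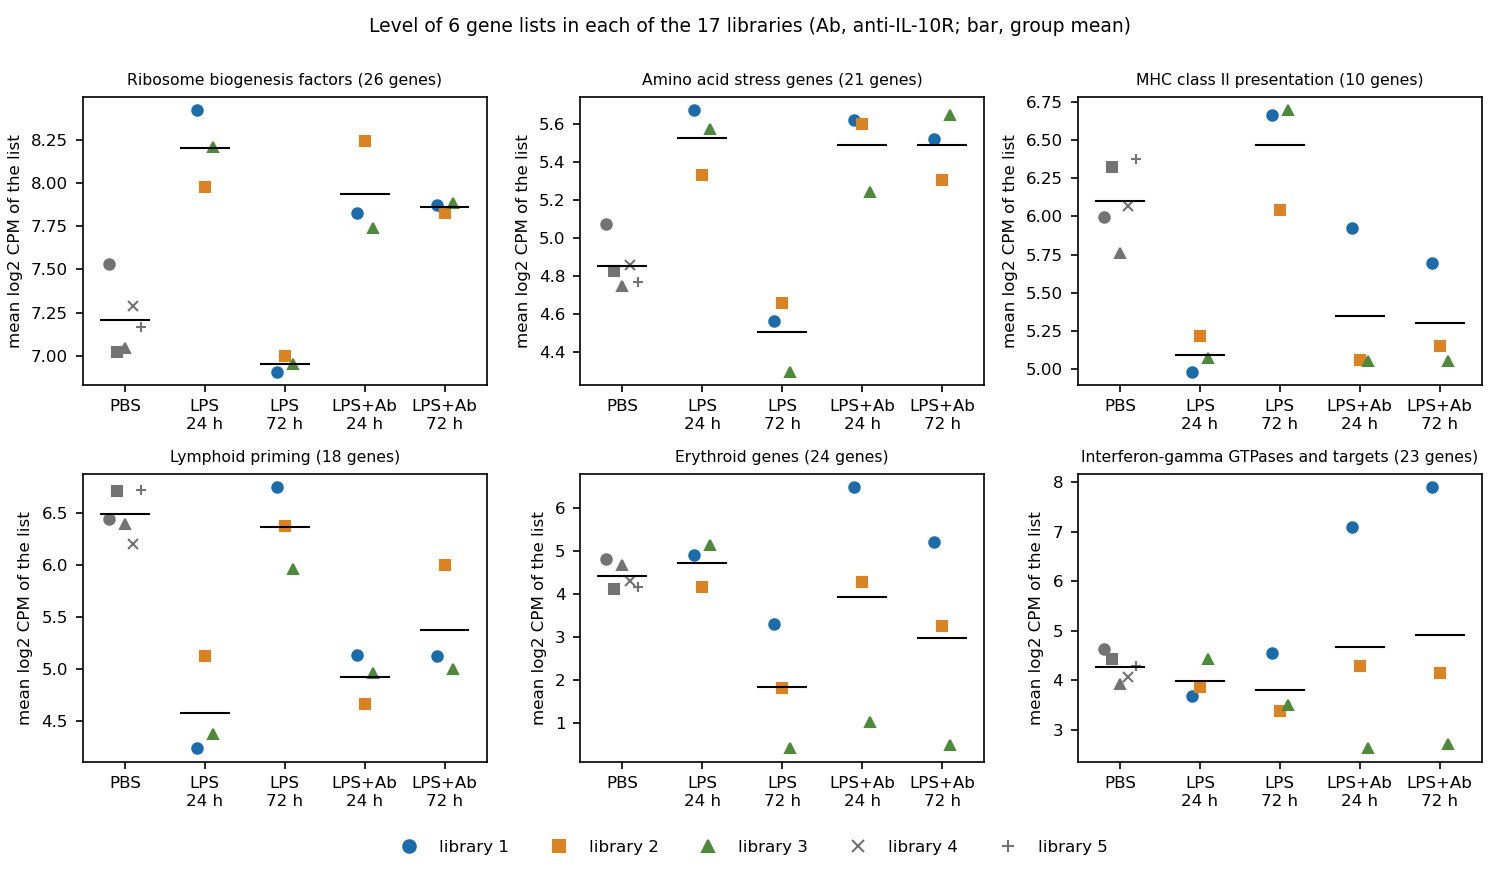
Mean log2 CPM of 6 gene lists in each library of the 5 groups, with library numbers as symbols and the group mean as a bar (Ab, anti-IL-10R; numbers of the PBS libraries, in grey, are unrelated to the others). Ribosome biogenesis factors lay between 7.74 and 8.24 in the 6 antibody libraries, while interferon-γ targets were highest in antibody library 1 at both times (7.10 and 7.90).

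By the same rule, the 5 genes with the greatest negative difference were higher at 72 h after LPS alone. With antibody their 24 h and 72 h values overlapped and none was called. Gsn, the actin-severing protein gelsolin, was at 29.9, 19.7 and 22.8 CPM at 24 h and at 15.7, 23.8 and 25.1 CPM at 72 h with antibody, a log2 change of -0.16 ± 0.23 (SE). After LPS alone it was at 15.7, 22.3 and 14.7 CPM and then at 90, 65.7 and 71.1 CPM, and the difference was -2.27 ± 0.33 (SE; edgeR adjusted p = 0.00831). All 72 h libraries with antibody lay below all those of LPS alone, which in part follows from naming the gene by this difference.

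Pld4, an endolysosomal exonuclease that degrades nucleic acids sensed by Toll-like receptors, was at 65.3, 39.1 and 64 CPM and then at 39, 29 and 63.4 CPM with antibody, a log2 change of -0.36 ± 0.34 (SE). With LPS alone the levels were 30, 37.7 and 28.1 CPM and then 123, 131 and 192 CPM, and the difference was -2.58 ± 0.48 (SE; edgeR adjusted p = 0.0104). Pld4 was lower in each antibody library at 72 h than in any library of LPS alone at that time, and the same limit applies.

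Ahnak, a large scaffold protein, was at 45.3, 32.6 and 60.3 CPM at 24 h and at 39.5, 45.9 and 82.1 CPM at 72 h with antibody, a log2 change of 0.28 ± 0.48 (SE). After LPS alone it was at 11.2, 49.3 and 16.7 CPM and then at 152, 131 and 321 CPM, and the difference was -2.68 ± 0.69 (SE; edgeR adjusted p = 0.0334). The 5 PBS libraries lay between 81 and 175 CPM. Ypel3 was at 32.6, 6.87 and 14.9 CPM and then at 20.7, 16.3 and 13.3 CPM with antibody, against 66.7, 53.2 and 35.1 CPM at 72 h after LPS alone. Its time effects differed by -2.46 ± 0.55 (SE; edgeR adjusted p = 0.018). Evl, an actin regulator of the Ena/VASP family, was at 22.1, 13.1 and 31.8 CPM and then at 14.5, 24.3 and 28.3 CPM with antibody, against 69.5, 64.2 and 61.4 CPM at 72 h after LPS alone. Its time effects differed by -2.24 ± 0.46 (SE; edgeR adjusted p = 0.0142).

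Both chains of the receptor that the antibody targets were among the genes with a called negative difference. Il10ra, the ligand-binding chain, was at 47.5, 17.6 and 35 CPM at 24 h and at 59.9, 27.7 and 32.8 CPM at 72 h with antibody, a log2 change of 0.27 ± 0.35 (SE) with overlapping groups. With LPS alone the levels were 11.2, 22.2 and 14.1 CPM and then 84.5, 78.3 and 87 CPM, and the time effects differed by -2.12 ± 0.51 (SE; edgeR adjusted p = 0.0258). Il10rb, the shared signalling chain, was at 42.5, 38.1 and 66.1 CPM and then at 33.6, 50.5 and 60.5 CPM with antibody, against 42, 42.2 and 39.3 CPM and then 90.3, 93.8 and 91.7 CPM after LPS alone. Its difference was -1.18 ± 0.33 (SE; edgeR adjusted p = 0.0452). It shares exons with the annotated transcript Gm21970.

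Stat3 and Socs3 were called in neither comparison. Stat3, the main transcription factor of the receptor, was at 234, 166 and 152 CPM at 24 h and at 297, 172 and 191 CPM at 72 h with antibody, a log2 change of 0.26 ± 0.18 (SE). Socs3, a feedback inhibitor that STAT3 induces, was at 17.3, 22.9 and 10.2 CPM and then at 25.7, 11 and 19.2 CPM, with overlapping groups. Il10 itself did not pass the filter and was between 0 and 0.56 CPM in the 6 libraries. Of the 20 tested genes of the receptor and STAT3 list, 15 estimates were higher with a median log2 change of 0.22 and 0 had an unadjusted p below 0.05. The third gene of this list with a called difference, also negative, was Zfp36, which encodes an RNA-binding protein that destabilizes cytokine messages. With the replicate block 0 of the 20 were called, and leaving out 1 library at a time gave 0 to 3 negative calls, 0 without library 1 or 3 at 24 h of either treatment or LPS alone library 1 at 72 h. Among 14 genes of the LPS receptor and its adaptors, 10 estimates were higher, with a median of 0.21 and 11 intervals within 2-fold.

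Antigen presentation genes of class II were on average near their 24 h level with antibody. The 10 genes had a median log2 change of -0.06 with antibody, and their mean log2 CPM was 5.93, 5.06 and 5.05 at 24 h and 5.70, 5.15 and 5.06 at 72 h, highest in library 1 at both times. The difference was called for 3, all negative, against 2.32% of all genes: H2-DMa, H2-DMb1 and H2-Oa, which edit or control the loading of peptides. H2-DMa was at 110, 65.7 and 105 CPM and then at 93.6, 95.5 and 76.3 CPM with antibody, against 256, 190 and 181 CPM at 72 h after LPS alone. Its time effects differed by -1.59 ± 0.27 (SE; edgeR adjusted p = 0.00831). With the replicate block 1 of the 10 was called, and leaving out 1 library at a time gave 2 to 4. Leaving out all LPS libraries numbered 2 gave 3. Leaving out all numbered 1, or all numbered 3, gave 0, as it did over all tested genes. H2-Oa had a difference of -1.91 ± 0.32 (SE; edgeR adjusted p = 0.00831). The H2 genes form similar families, and how reads that match several genes were handled is not given.

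Among dendritic cell markers the difference was called for 4 of 15, all negative (Cox6a2, Cd300c, Itgax and Cd209a), against 2.32% of all genes, and for 0 with the replicate block. Leaving out 1 library at a time gave 1 (without antibody library 1 at 24 h or LPS alone library 1 at 72 h) to 7 (without library 2 at 24 h of either treatment). Leaving out all LPS libraries numbered 2 gave 8. Leaving out all numbered 1, or all numbered 3, gave 0, as it did over all tested genes. Itgax, the integrin CD11c, was at 14.2, 13.4 and 9.67 CPM at 24 h and at 5.55, 10.2 and 10.7 CPM at 72 h with antibody. At 72 h after LPS alone it was at 38.9, 25.6 and 40.1 CPM, and the time effects differed by -2.15 ± 0.48 (SE; edgeR adjusted p = 0.0177). The summed level of the 15 markers ran from 476 to 744 CPM at 24 h and from 383 to 592 CPM at 72 h with antibody. Fewer cells of a type and less RNA per cell cannot be told apart in such bulk libraries.

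Lymphoid priming genes, which progenitors switch on as they acquire lymphoid potential, leaned higher at 72 h with antibody. Of 18, 15 estimates were higher with a median log2 change of 0.46, 8 were higher in all 3 same-numbered pairs against 15.8% of all genes, and 3 had an unadjusted p below 0.05 against 2.53%. Those were Il7r at 1.09 ± 0.47, Tcf4 at 0.45 ± 0.18 and Il12a, a subunit of interleukin-12, at 0.84 ± 0.36 (SE) on the log2 scale. Il7r, the receptor for interleukin-7, was at 12.7, 5.54 and 6.34 CPM and then at 22.3, 21.5 and 8.84 CPM, and Tcf4, a transcription factor of the plasmacytoid lineage, at 70.5, 58.4 and 78.9 CPM and then at 105, 88.2 and 91.3 CPM without overlap. Dntt, the terminal transferase of early lymphoid cells, showed the spread of libraries, with 57.6, 16.6 and 249 CPM at 24 h and 19.7, 421 and 259 CPM at 72 h. After LPS alone the median log2 change of the list was 1.83, and the difference from LPS alone had a median of -1.37. The estimate of the difference was negative for 17 of 18, and 1 was called, against 2.32% of all genes. Leaving out 1 library at a time gave 0 to 6 calls. At 72 h with antibody the mean log2 CPM of the list was 5.12, 5.99 and 5.00, against 6.20 to 6.72 in PBS. Within the pairs the median of the list with antibody was 0.15, 1.14 and 0.03, and without both libraries numbered 2 it was -0.03. In the pair numbered 2 all 15 tested B-lymphoid markers (median 1.22) and 19 of 20 monocyte and macrophage markers (median 2.62) were also higher at 72 h, and their part in the result was not tested.

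Erythroid genes had lower estimates at 72 h throughout, with a spread between libraries that exceeded the change. Of 25 listed genes 24 were tested, and all 24 estimates were lower, the median log2 change was -1.06 against 0.00 for all genes, and the median standard error was 1.12. In the fit without block 1 of the 24 had an unadjusted p below 0.05, Slc4a1. The mean log2 CPM was 6.49, 4.29 and 1.02 at 24 h and 5.2, 3.25 and 0.47 at 72 h, with the PBS libraries between 4.11 and 4.82, so that each number was lower at 72 h and library 3 was at both times below the other 2 by over 2 log2 units. In the pair numbered 1 all 24 genes were lower at 72 h, in the pair numbered 2 there were 19, and in the pair numbered 3 there were 16, with 4 higher and 4 without a read at either time. Lower in all 3 pairs were 13, against 17.4% of all genes. After LPS alone the median log2 change of the list was -2.62, a larger fall than with antibody. Its mean log2 CPM there was 4.91, 4.15 and 5.13 at 24 h and 3.29, 1.81 and 0.39 at 72 h.

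Gata1, the factor that directs red cell and megakaryocyte development, was at 128, 38.5 and 5.45 CPM at 24 h and at 71.3, 13.9 and 3.32 CPM at 72 h. The groups overlapped, and the change was -0.96 ± 0.99 on the log2 scale (SE; edgeR adjusted p = 0.92). Klf1, the erythroid factor under its control, was at 92.6, 27.5 and 1.3 CPM and then at 39.7, 6.63 and 0.495 CPM, a log2 change of -1.38 ± 1.18 (SE). Blvrb, a biliverdin reductase abundant in red cell precursors, was at 140, 33.9 and 6.42 CPM and then at 57.2, 12.1 and 2.48 CPM, and the change was -1.33 ± 0.92 (SE). Within the pairs the log2 change of Blvrb was -1.29, -1.47 and -1.32.

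With the replicate block 16 of the 24 erythroid genes had an unadjusted p below 0.05, all lower, against 5.35% of all genes, and none was called by edgeR. In that fit the log2 change was -1.38 ± 0.13 for Blvrb (SE; edgeR adjusted p = 0.0948), -1.57 ± 0.21 for Klf1 (adjusted p = 0.301) and -1.04 ± 0.17 for Gata1 (adjusted p = 0.358). DESeq2 with the block called 8 of the 24, all lower, against 0.214% of all genes, Blvrb, Klf1 and Gata1 among them. The direction rested on library 1 at 24 h in the fit without block: without that library the median was 0.53 with 20 of 24 estimates higher, and with both libraries numbered 1 left out it was -1.08. The difference from LPS alone was called for 0 of the 24 by edgeR, and its median was 1.44, or -0.28 with 17 of 24 estimates lower without antibody library 1 at 72 h. α- and β-globin genes are near-identical pairs, so their counts are uncertain.

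Heme and iron genes leaned the same way. Of 18, 16 estimates were lower with a median log2 change of -0.31, and 3 had an unadjusted p below 0.05, all lower, against 1.73% of all genes: Alad, Uros and Steap3. In the pairs numbered 1, 2 and 3 there were 16, 13 and 11 lower, with medians of -0.63, -0.18 and -0.07. Lower in all 3 pairs were 7 of the 18, against 17.4% of all genes. Alad, an early enzyme of heme synthesis, was at 118, 58.1 and 44.1 CPM at 24 h and at 56.7, 33 and 26.4 CPM at 72 h, a change of -0.92 ± 0.37 on the log2 scale (SE; edgeR adjusted p = 0.918). With the block it was -0.88 ± 0.12 (SE; edgeR adjusted p = 0.301), and DESeq2 with the block called it. Megakaryocyte and platelet genes leaned the other way, with 16 of 20 estimates higher, a median of 0.63 and 4 at an unadjusted p below 0.05 against 2.53%. That lean was uneven over the pairs, with 13, 18 and 5 of the 20 higher at 72 h in the pairs numbered 1, 2 and 3.

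Interferon-γ targets had higher estimates at 72 h that rested on library 1. The list holds the guanylate-binding proteins and immunity-related GTPases, which attack intracellular pathogens, and related targets. All 23 estimates were higher at 72 h with a median log2 change of 0.52, 0 had an unadjusted p below 0.05, and 0 intervals lay within 2-fold. The mean log2 CPM was 7.10, 4.29 and 2.62 at 24 h and 7.90, 4.15 and 2.71 at 72 h, against 3.37 to 4.54 in the 6 libraries of LPS alone and 3.92 to 4.62 in PBS. In the pair numbered 1 all 23 genes were higher at 72 h, in the pair numbered 2 there were 6 and in the pair numbered 3 there were 12. Without library 1 at 72 h the median was -2.20, and without both libraries numbered 1 it was -0.31.

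Gbp2 was at 914, 41.9 and 24.6 CPM at 24 h and at 1437, 25 and 19.9 CPM at 72 h. Gbp4 was at 104, 5.15 and 0.569 CPM and then at 233, 12 and 1.56 CPM, higher at 72 h in each pair. Cxcl10, a chemokine that draws T cells, was at 55.1, 6.72 and 1.3 CPM and then at 429, 3.74 and 0.849 CPM. Library 1 was the highest for these genes at each time, and the groups overlapped. The GTPases are close paralogs, so reads could be split between them. The stem cell antigen Ly6a, itself an interferon target, had the same order with 530, 266 and 58.1 CPM at 24 h and 632, 84.9 and 64.7 CPM at 72 h. For the 33 genes of the type I interferon response the median log2 change was 0.10, with 23 estimates higher, and it was -1.12 with 1 of 33 higher without library 1 at 72 h. For the 20 genes of class I presentation it was -0.13, with 15 lower, and 0.25 without library 1 at 24 h. Within the pairs numbered 1, 2 and 3 the median was 0.16, -0.11 and 0.12 for the type I response and -0.01, -0.47 and -0.18 for class I.

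**Figure D4:**
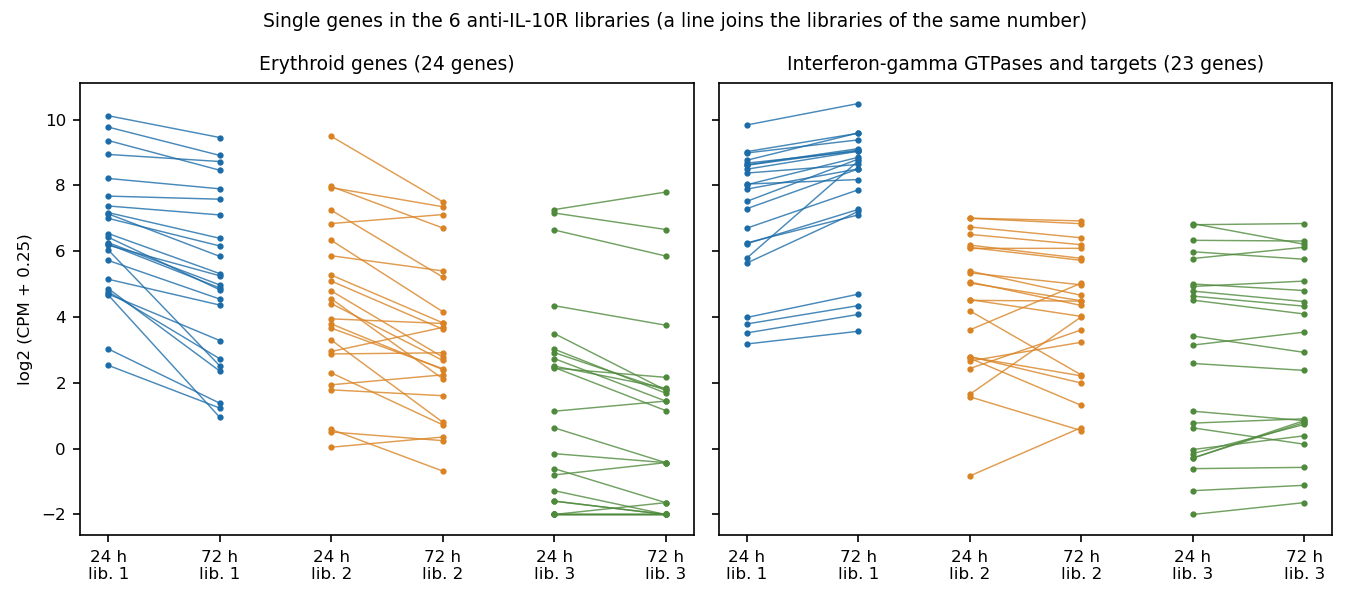
Log2 (CPM + 0.25) of the 24 erythroid genes (left) and the 23 interferon-γ GTPases and targets (right) in the 6 antibody libraries, each line being 1 gene and joining the libraries of the same number at 24 h and 72 h. Erythroid lines mostly run downward in each pair (24, 19 and 16 genes lower) from levels far apart between the numbers, and the interferon-γ targets run upward together in the pair numbered 1 (23 genes higher).

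No stem cell regulator or surface marker was called between the times. Of 30 regulators of hematopoietic stem cells 22 estimates were higher with a median log2 change of 0.26, 0 had an unadjusted p below 0.05 and 14 intervals lay within 2-fold. Only Runx1, 1 of the 30, had its 72 h values entirely above those at 24 h, against 4.87% of all genes. Without both libraries numbered 2 the median was -0.07. Kit, the stem cell factor receptor, was at 432, 275 and 260 CPM at 24 h and at 589, 334 and 247 CPM at 72 h, a log2 change of 0.28 ± 0.27 (SE), and Cd34 was at 234, 358 and 566 CPM and then at 340, 530 and 468 CPM, a log2 change of 0.21 ± 0.24 (SE). Kit, Cd34, Ly6a and Flt3, markers of the labelled cell type, had reads in each of the 6 libraries. Of 19 primary granule and progenitor genes 16 estimates were lower with a median of -0.07, or 0.09 without library 1 at 72 h, and Mpo, myeloperoxidase, was at 2830, 6171 and 7742 CPM and then at 2678, 7062 and 7920 CPM, with library 1 lowest at both times.

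Intervals were narrow for cell cycle and cholesterol synthesis genes. The 95% interval lay within 2-fold in either direction for all 24 genes of G2 and M phase, for all 28 of DNA replication and for all 22 of cholesterol synthesis, against 69.9% of all genes. For G2/M genes the median log2 change was 0.02, or -0.14 without library 3 at 72 h. Mki67, a marker of cycling cells, was at 715, 606 and 629 CPM at 24 h and at 810, 796 and 890 CPM at 72 h, without overlap, a change of 0.36 ± 0.25 on the log2 scale (SE; edgeR adjusted p = 0.918). Of the 28 replication genes 26 estimates were lower with a median of -0.14, and of the 22 of cholesterol synthesis 17 were lower with a median of -0.09, or 0.08 without library 3 at 24 h. Quiescence genes had a median of 0.16 (12 of 19 higher), p53 targets 0.23 (13 of 19), immediate early genes 0.22 (13 of 21), glucocorticoid and clock genes 0.25 (16 of 19), inflammatory genes of the NF-kB pathway 0.31 (18 of 22) and metallothionein and zinc genes 0.04 (4 of 8). Without library 1 at 72 h the median was -0.29 for NF-kB genes (8 of 22 higher), -0.28 for p53 targets (8 of 19), -0.02 for quiescence genes and -0.016 for metallothionein and zinc genes. That setting keeps library 1 at 24 h. Within the pairs numbered 1, 2 and 3 the median was 0.59, 0.12 and -0.003 for NF-kB genes and 0.35, -0.06 and 0.02 for p53 targets. It was 0.13, 0.23 and -0.03 for quiescence genes and 0.10, -0.21 and 0.18 for metallothionein and zinc genes. Without both libraries numbered 2 it was -0.03 for immediate early genes.

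Markers of other cells were measured in the same libraries to show what the sorted cells could hold besides progenitors. The summed level of 20 monocyte and macrophage markers ran from 512 to 594 CPM at 24 h and from 479 to 926 CPM at 72 h, with 19 estimates higher and a median log2 change of 0.62, which was -0.50 without library 2 at 72 h. For 20 T and NK markers it ran from 184 to 264 CPM and from 130 to 218 CPM, with 16 estimates lower, a median of -0.59 and 11 of 20 lower in all 3 pairs against 17.4% of all genes. For 18 B-lymphoid markers, of which 15 were tested, it ran from 106 to 228 CPM and from 92.9 to 461 CPM, and for 16 late granule genes, of which 15 were tested, from 363 to 1239 CPM and from 252 to 755 CPM. The late granule genes had 11 of 15 estimates lower with a median of -1.22, which was 0.30 with 11 of 15 higher without library 2 at 24 h. Stromal and endothelial markers summed to between 120 and 168 CPM at 24 h and between 153 and 186 CPM at 72 h. No marker of these lists was at 0 in all 6 libraries, and none was called between the times. Their part in the values above was not tested.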

How the data were processed

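Polyadenylated RNA of sorted cells was sequenced, and the authors deposited whole-number counts per gene symbol for 17 libraries. The submitters' processing notes name HISAT2 2.2.0, Subread, featureCounts 2.1.1, R 4.3.2, DESeq2 and GRCm38. Annotation, strand setting and handling of multiply matching reads are not given in the sources used here. Of 35321 symbols, 13321 were at 0 throughout, and 14920 passed edgeR's filterByExpr (minimum count 10, total 15), with 99.9% of counts. There were 0 columns without a sample.

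The quasi-likelihood test of edgeR 4.0.16 (R 4.3.3) was fitted to all 17 libraries with TMM scaling and 1 mean per group. P-values were adjusted by Benjamini-Hochberg over all tested genes with a threshold of 0.05. Standard errors were derived from the F statistic, and log2 CPM used a prior count of 2. Tests were run on simulated counts with independent libraries, a dispersion below the fitted one and no effect of the replicate number. Those counts differ from these data, so they do not show the error rate here. DESeq2 1.42.0 and limma 3.58.1 were alternatives, as were other scalings, no filter, left-out libraries and the replicate block. Same-numbered libraries did not all deviate together (correlations 0.723, -0.022 and 0.697), and the main fit did not take the numbers as pairs. Deviations within a group cancel out, so the value of -0.022 is not independent of the others and cannot decide against pairing.

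Genes were named by rule: the 5 with the smallest p in each direction, up to 4 per list by smallest p with block, the 5 greatest called differences in each direction at or above median expression, and a fixed set. Other genes were chosen after their values were seen. The comparison and the lists were chosen with earlier results of these data known. Positions are from GENCODE vM21.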

Additional observations from a re-analysis of the deposited data

Results flagged for a closer look

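The time effects with and without antibody differed, by the test of the difference itself, for 947 genes at an edgeR adjusted p below 0.05. Among those named, the difference (log2, with antibody minus LPS alone) was positive for Asns at 2.12, Snhg3 at 1.98, Odc1 at 1.88, Hspd1 at 1.87, Ak4 at 1.85, Slc7a5 at 1.74, Nolc1 at 1.68, Ldha at 1.62, Ncl at 1.59 and Hspa5 at 1.52. It was negative for Ahnak at -2.68, Pld4 at -2.58, Ypel3 at -2.46, Gsn at -2.27, Evl at -2.24, Itgax at -2.15, Il10ra at -2.12, H2-Oa at -1.91, H2-DMa at -1.59 and Il10rb at -1.18.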

How the results depend on the processing

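The count of 0 genes between 72 h and 24 h with antibody was also found with DESeq2 size factors, upper-quartile factors, no filter on low counts, limma voom, a fit of the 6 libraries alone, the block over the 12 LPS libraries, each antibody library left out in turn (0 calls, 481 to 1306 genes at an unadjusted p below 0.05) and both libraries of a number left out. It was 2 with the DESeq2 Wald test. With the replicate block it was 1 under TMM, upper-quartile or DESeq2 factors and 39 with the DESeq2 Wald test, and the block without the pair numbered 1, 2 or 3 gave 0, 14 and 8. The labels state no pairing and the correlations of deviations could not settle it, so a call gained or lost with the block says nothing of the size of an effect.

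The 947 differences between the time effects became 617 without the filter, 1709 with the DESeq2 Wald test, 1585 with limma voom, 278 in a fit of the 12 LPS libraries and 44 with the replicate block, 43 of them among the 947. Leaving out each library in turn gave 258 (LPS alone 72 h, number 1) to 1579 (antibody 24 h, number 2). Other libraries that moved it by over 1.5 times were antibody 24 h numbers 3 (362) and 1 (388), LPS alone 24 h number 3 (479), LPS alone 72 h number 2 (494) and antibody 72 h number 3 (535). Leaving out all LPS libraries of a number, chosen after seeing the data, gave 0 for number 1 (2446 at an unadjusted p below 0.05), 1066 for number 2 and 0 for number 3 (2336), with 2 libraries a group.

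The called difference was lost in 17 of 22 alternative settings for Hspa5, 16 for Il10rb, 12 each for Asns and Ahnak and 10 for Il10ra. For the other genes described above it was lost in 2 to 5. None of the 20 single-gene differences described above changed sign under these settings. Changes with antibody that did, none of them called, were Gsn with limma voom (0.045) and without both libraries numbered 1 (0.22), and Odc1 (0.073) and Hspd1 (0.24) without both numbered 2. With the block, they were Asns without pair 1 (0.044) or 2 (0.068), Gsn without pair 1 (0.22), and Odc1 (0.075) and Hspd1 (0.23) without pair 2. With 1 library left out, the ranges that crossed 0 were Asns -0.57 to 0.25, Hspd1 -0.33 to 0.13, Ak4 -0.014 to 0.71, Ahnak -0.11 to 0.52, Gsn -0.29 to 0.023, Gata1 -2.76 to 0.42, Klf1 -3.56 to 0.11, Blvrb -3.08 to 0.24, Kit -0.15 to 0.54, Cd34 -0.052 to 0.59, Stat3 -0.022 to 0.47 and Il10ra -0.14 to 0.61. Each group held 3 libraries, and for low genes such as Lpar1 the count itself limits the estimate.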
